A study of Mus musculus with 6 samples.

Results

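The genes described here are 10 members of, or companions to, the annexin and S100 families: Anxa1, Anxa2, S100a4, S100a6, S100a10, S100a11, Ahnak, Emp3, Vim and Pdlim1. They were picked by symbol out of 55487 genes, as annexin and S100 genes and the genes usually expressed with them in activated or memory lymphocytes. The list was drawn up with differences between the genotypes already known, so those differences are given below as a description, without p-values. Where one of the 10 genes is said to pass a test, in any fit, that too is description and no independent support. RNA was sequenced from marginal zone (MZ) B cells of 14-week-old mice, after negative selection for B cells and flow sorting, in 3 libraries from CD55KO mice and 3 from WT C57BL/6 mice. CD55KO mice lack CD55, also called decay-accelerating factor, a membrane protein that restrains complement on the cell that carries it. The sources used here do not give the part of the gene deleted, the strain background of the CD55KO mice, the sex, or whether each library came from a mouse of its own. The p-values further down therefore rest on the spread among libraries, which may be technical.

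Annexins are cytosolic proteins that bind acidic phospholipids when calcium rises and so attach to membranes. S100 proteins are small calcium-binding dimers, and some have annexin partners: S100A10 binds the N-terminal tail of annexin A2, and S100A11 binds that of annexin A1. AHNAK is a very large scaffold that joins the annexin A2 and S100A10 complex under the plasma membrane, vimentin is the intermediate filament protein of leukocytes, PDLIM1 ties actin fibres to other proteins through PDZ and LIM domains, and EMP3 is a tetraspan membrane protein of the epithelial membrane protein family. In T and B lymphocytes, transcripts of these genes are known to be scarcer in naive cells than in effector or memory cells.

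Cd55 transcripts were low in each CD55KO library. They averaged 7.53 ± 1.36 CPM there, against 118 ± 7.69 CPM in WT (SD, n = 3). CPM are counts scaled to a common library total and between libraries by the trimmed mean of M-values (TMM). Total counts ranged from 20056064 to 30784031 per library. The 10 markers of MZ and general B cells fixed for this purpose, Cr2, Cd1d1 and S1pr3 among them, summed to between 11559 and 12499 CPM in CD55KO and between 11367 and 12816 CPM in WT. WT replicate 1 and CD55KO replicate 3 lay at opposite ends of the leading principal component, which held 28.8% of the variance. Of 13794 genes tested, 0.399% passed, meaning an adjusted p under 0.05 by the quasi-likelihood test of edgeR, 0.138% as higher and 0.261% as lower in CD55KO.

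Per length of transcript, the S100 genes of the annexin complexes were far more abundant than the annexins they pair with. In WT the order, as CPM per kilobase of exon, was S100a11 (297.9 ± 12.6, SD, n = 3), S100a10 (43.2 ± 1.69), Emp3 (38.5 ± 0.63), Vim (12.5 ± 2.10), Anxa1 (6.97 ± 0.51), Pdlim1 (5.12 ± 0.59), S100a6 (4.07 ± 0.33), Anxa2 (3.34 ± 1.34) and Ahnak (0.136 ± 0.028). Neighbours in that order had separate WT ranges, apart from S100a6 and Anxa2, whose ranges overlapped, and Ahnak and S100a4 at the bottom. S100a11 lay above 98.4% of the tested genes on this scale, while Ahnak lay above only 3.90%. The length used is that of all annotated exons of a gene together, 511 bases for S100a11 and 19938 for Ahnak, so genes with several transcript forms are placed too low. S100a4, known as an abundant S100 of memory T cells and myeloid cells, was at the limit of detection.

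**Figure D1:**
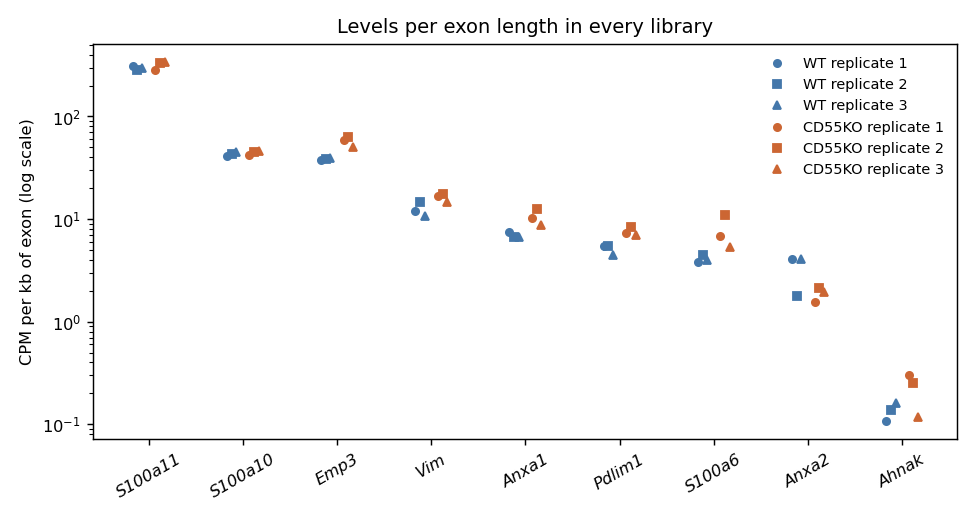
Level of the 9 tested genes in each library, as CPM per kilobase of exon on a log axis, ordered by the WT mean; blue points are WT and orange points CD55KO, with a marker for each replicate. S100a11 stands at the top at 297.9 in WT and Ahnak at the bottom at 0.136.

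Of the 10 genes 9 had enough counts to be tested, and each of the 9 had at least 44 counts in every library of both genotypes. By the test over all genes 3 of the 9, Anxa1, Emp3 and Pdlim1, passed as higher in CD55KO and none passed as lower, beside 0.138% and 0.261% of all genes tested. Since the list was chosen with this contrast in view, nothing is read from that count. Per-library values are listed below in the order of replicates 1 to 3. In 4 genes, the same 3 and S100a6, every CD55KO library lay above every WT library, which 7.24% of all tested genes showed. In bulk samples, a change in the number of cells of one kind and a change in RNA per cell cannot be told apart.

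**Figure D2:**
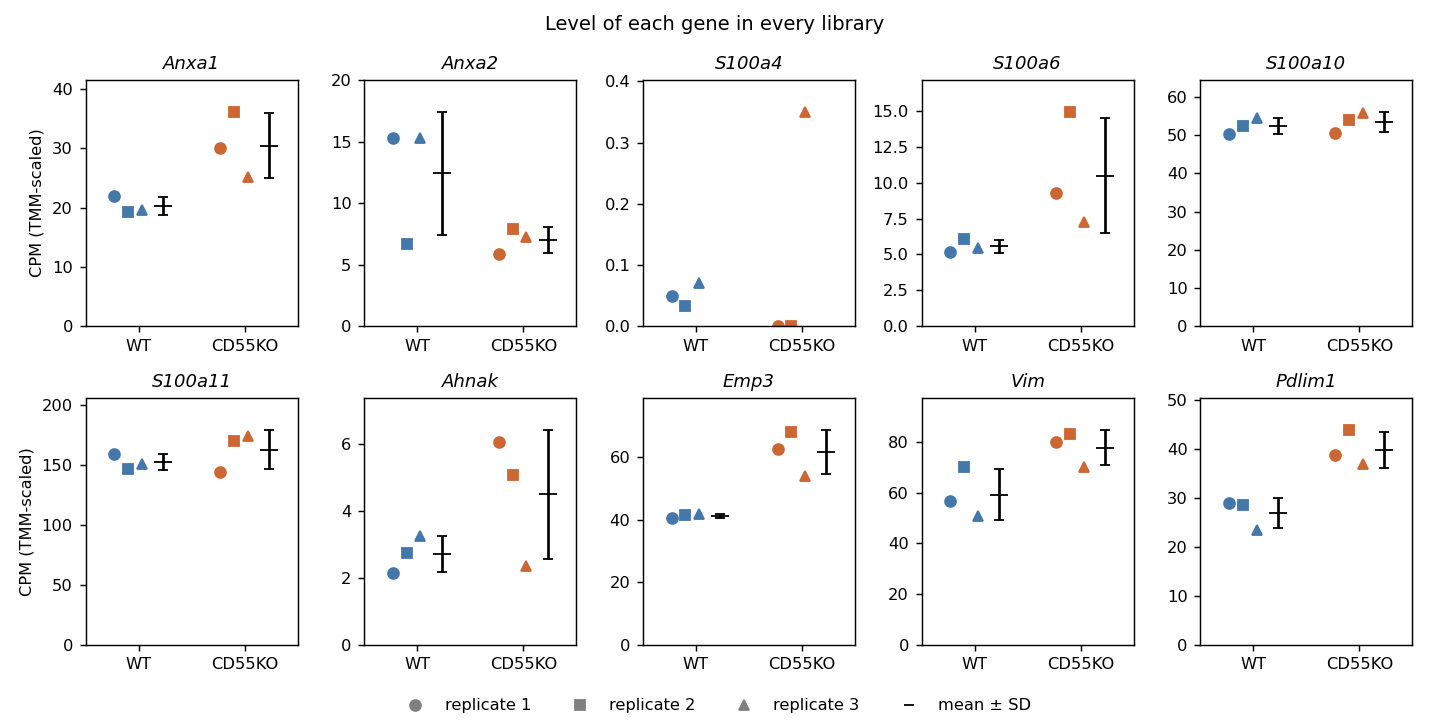
Level of each of the 10 genes in every library, in TMM-scaled CPM from 0; markers give the replicate, and black bars the mean ± SD of 3 libraries (left out for S100a4, which had 10 counts or fewer everywhere). The genotypes separate for Anxa1, S100a6, Emp3 and Pdlim1, while 2 of the WT libraries lie above all others for Anxa2.

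The promoters of the 3 genes that passed and of Anxa2, the gene with the opposite sign, are shown to compare their core elements. They are the 250 bases before the transcription start in RefSeq (GRCm38.p6), 5′ to 3′ on the strand of the gene, with every match of the 5 motifs searched in capitals. The motifs were the TATA box (TATAAA), the CCAAT box (CCAAT), the GC box (GGGCGG), the AP-1 site (TGANTCA) and an ETS site (CGGAAG), on both strands. The windows are chr19:20390672-20390921 (minus strand) for Anxa1, chr7:45921427-45921676 (minus strand) for Emp3, chr19:40271617-40271866 (minus strand) for Pdlim1 and chr9:69453433-69453682 (plus strand) for Anxa2. The RefSeq start can differ from that of GENCODE M21, the annotation used for gene positions. The Anxa1 window lies wholly, the Pdlim1 window mostly and the Anxa2 window partly inside the GENCODE gene span. Emp3 had 2 RefSeq entries, and the one with its start nearest the GENCODE start is shown.
Anxa1: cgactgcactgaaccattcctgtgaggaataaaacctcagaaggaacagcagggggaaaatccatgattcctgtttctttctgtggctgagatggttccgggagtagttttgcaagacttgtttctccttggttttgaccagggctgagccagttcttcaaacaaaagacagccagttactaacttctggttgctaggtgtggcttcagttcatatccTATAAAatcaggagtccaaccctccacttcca
Emp3: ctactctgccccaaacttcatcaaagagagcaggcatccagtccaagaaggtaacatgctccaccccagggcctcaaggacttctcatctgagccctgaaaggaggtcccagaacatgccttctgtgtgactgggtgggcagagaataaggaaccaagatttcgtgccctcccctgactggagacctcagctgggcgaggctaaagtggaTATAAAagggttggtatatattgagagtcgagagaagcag
Pdlim1: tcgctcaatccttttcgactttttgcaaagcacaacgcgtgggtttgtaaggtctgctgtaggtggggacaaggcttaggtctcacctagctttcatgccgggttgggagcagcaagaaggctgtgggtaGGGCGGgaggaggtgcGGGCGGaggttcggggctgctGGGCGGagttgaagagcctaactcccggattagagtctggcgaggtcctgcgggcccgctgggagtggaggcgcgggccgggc
Anxa2: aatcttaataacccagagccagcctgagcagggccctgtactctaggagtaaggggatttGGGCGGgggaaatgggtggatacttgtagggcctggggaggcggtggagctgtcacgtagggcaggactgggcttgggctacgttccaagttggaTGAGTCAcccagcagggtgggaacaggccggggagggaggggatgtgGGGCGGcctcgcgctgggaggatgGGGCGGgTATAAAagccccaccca

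Anxa1 and Emp3 each held a single match, a TATA box that begins 32 and 40 bases before the start. Pdlim1 held 3 GC boxes and no TATA box, and had a GC content of 62.4%, against 46.0% for Anxa1 and 52.0% for Emp3. Anxa2 held 3 GC boxes, an AP-1 site and a TATA box at 17 bases before the RefSeq start, which lies inside its GENCODE gene span. Of the 10 genes 9 had a promoter entry, all but S100a10, and 5 of these 9 held a TATA box: Anxa1, Anxa2, S100a4, Emp3 and Vim. In the same window 12.4% of all 32851 promoters in the table held one. GC boxes were found in 4 of the 9 (32.7% of all promoters), CCAAT boxes in 2 (33.8%), AP-1 sites in 2, Anxa2 and S100a11 (6.75%), and ETS sites in 0 (13.6%). A match of letters is no evidence that a factor binds, and a missing match says only that these letters are not in the window. No motif searched was shared by all 3 genes that passed.

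Among the annexins, Anxa1 was higher and Anxa2 lower in CD55KO on average. Anxa1 encodes annexin A1, a protein known for its anti-inflammatory action through formyl peptide receptors, and lies on chromosome 19 (minus strand, 20373428 to 20390944, build GRCm38). It had 30.1, 36.2 and 25.2 CPM in the CD55KO libraries and 22.01, 19.3 and 19.6 CPM in the WT libraries. The lowest CD55KO library for Anxa1, replicate 3, was above the highest WT library, replicate 1. The means were 30.5 ± 5.49 and 20.3 ± 1.496 CPM, a log2 fold change of CD55KO against WT of 0.59 ± 0.12 (SE). Without CD55KO replicate 2, the library with the highest value, it was 0.45, and without CD55KO replicate 3 it was 0.71. Anxa1 passed in the latter fit and in none of the other 5 fits that left out 1 library.

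Anxa2 encodes annexin A2, which links membranes to actin and, with S100A10, binds plasminogen at the cell surface. It lies on the plus strand of chromosome 9 from 69453620 to 69491795. The gene had 5.83, 7.89 and 7.25 CPM in the CD55KO libraries and 15.4, 6.67 and 15.3 CPM in the WT libraries. WT replicates 1 and 3 were thus about level with each other, and WT replicate 2 lay inside the CD55KO range. Means of 6.99 ± 1.05 and 12.4 ± 4.998 CPM gave a log2 fold change of -0.83 ± 0.32 (SE), which did not pass. It was -1.13 without WT replicate 2, where Anxa2 passed, but -0.65 without WT replicate 1 and -0.64 without WT replicate 3.

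The same WT libraries stood out for some genes of germinal centre B cells, the proliferating B cells of an ongoing antibody response. S1pr2, a receptor that holds such cells in the follicle, had 0.587, 2.95 and 2.45 CPM in the CD55KO libraries and 8.40, 2.27 and 5.26 CPM in WT. Jchain, a plasma cell marker that encodes the joining chain of secreted IgM and IgA, had 2.64, 9.265 and 9.88 CPM in CD55KO and 32.4, 10.9 and 16.4 CPM in WT. For Jchain, unlike Anxa2, WT replicate 2 also lay above every CD55KO library. All 6 germinal centre markers together summed to 27.6 to 36.5 CPM in CD55KO and 30.8 to 77.5 CPM in WT. For S1pr2, as for Anxa2, WT replicates 1 and 3 were above the other 4 libraries and WT replicate 2 was within the CD55KO range. Of the 6 markers only Gcsam, a signalling adaptor of germinal centre B cells, passed, as lower in CD55KO (0.513, 1.38 and 1.30 against 5.15, 3.38 and 2.70 CPM). The part of these cells in the Anxa2 difference was not tested.

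**Figure D3:**
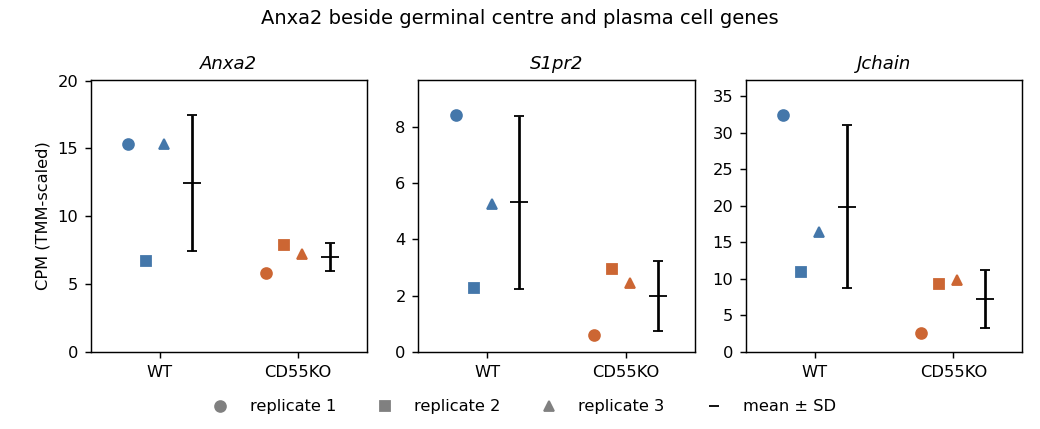
TMM-scaled CPM from 0 of Anxa2, the germinal centre gene S1pr2 and the plasma cell gene Jchain in every library; markers give the replicate and black bars the mean ± SD of 3 libraries. In all 3 panels WT replicates 1 and 3 are the highest, at 15.4 and 15.3 CPM for Anxa2.

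Of the S100 genes, S100a10 and S100a11 were abundant and close between the genotypes, S100a6 was higher in CD55KO, and S100a4 was barely detected. S100a10 and S100a11 sit side by side on chromosome 3, on the plus strand from 93555080 to 93564643 and from 93520488 to 93526287, with 28.8 kb between them. S100a10 had 50.5, 54.1 and 55.7 CPM in the CD55KO libraries and 50.4, 52.3 and 54.5 CPM in the WT libraries. Its log2 fold change of 0.03 had a 95% interval from -0.14 to 0.20, and S100a11 had 0.09 with an interval from -0.08 to 0.27. S100a11 had 143.9, 170.0 and 173.8 CPM in CD55KO and 159, 146 and 151 CPM in WT. For both genes the libraries of the genotypes overlapped. The values of S100a11, like those of Pdlim1, were not whole numbers in any library, which may come from reads shared with other genes. The cause was not tested.

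S100a6, which encodes a calcium-binding protein also called calcyclin, lies 2896 kb from that pair, on the plus strand from 90612882 to 90624181. It had 9.31, 14.97 and 7.25 CPM in the CD55KO libraries and 5.20, 6.07 and 5.44 CPM in the WT libraries. The WT libraries were close together, while CD55KO replicate 2 had a far higher level than CD55KO replicate 3. With means of 10.5 ± 3.997 and 5.57 ± 0.45 CPM, its log2 fold change of 0.91 ± 0.23 (SE) was the largest of the 9 genes but did not pass. It was 0.57 without CD55KO replicate 2 and 1.12 without CD55KO replicate 3, where it passed. The DESeq2 Wald test also called it.

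S100a4, from 90603771 to 90606045, ends 6.84 kb before the start of S100a6. It had 0, 0 and 10 counts in the CD55KO libraries and 1, 1 and 2 counts in the WT libraries. Apart from CD55KO replicate 3 these counts lie at or under the limit of 3 counts that a zero still permits, which corresponds to 0.0975 to 0.150 CPM by library and covers counting error only. No fold change is given, and a difference between the genotypes was not detectable at this depth.

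Set beside their partners, the S100 transcripts were in excess in every library. The ratio of S100a10 to Anxa2 per kilobase was 26.7, 21.1 and 23.7 in the CD55KO libraries and 10.1, 24.1 and 10.9 in the WT libraries. It overlapped between the genotypes through WT replicate 2. The ratio of S100a11 to Anxa1 was 27.3, 26.8 and 39.3 in CD55KO and 41.2, 43.3 and 43.9 in WT, without overlap. As S100a10 and S100a11 varied less than the annexins, these ratios follow the annexin levels already given and add no evidence of their own.

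Among the scaffold and cytoskeletal genes, Emp3 and Pdlim1 were higher in each CD55KO library than in any WT library. Emp3 (chromosome 7, minus strand, 45918023 to 45921404) had 62.5, 68.1 and 54.1 CPM in the CD55KO libraries and 40.5, 41.5 and 41.8 CPM in the WT libraries. The WT libraries were nearly level, with an SD of 0.67 CPM around 41.3, against 7.04 around 61.6 in CD55KO. The log2 fold change was 0.58 ± 0.09 (SE), a 1.49-fold difference. Emp3 passed in 5 of the 6 fits that left out 1 library, the exception being the fit without CD55KO replicate 2 (log2 fold change 0.50), where it narrowly missed the threshold.

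Pdlim1 (chromosome 19, minus strand, 40221173 to 40271842) had 38.6, 43.7 and 36.8 CPM in the CD55KO libraries and 28.9, 28.6 and 23.4 CPM in the WT libraries. WT replicate 3 was the lowest library, and CD55KO replicate 2 the highest. Means of 39.7 ± 3.61 and 26.9 ± 3.09 CPM gave a log2 fold change of 0.56 ± 0.10 (SE). It passed in 3 of the 6 fits without 1 library, and did not when the library left out was CD55KO replicate 2 (log2 fold change 0.48), WT replicate 2 (0.61) or WT replicate 3 (0.47).

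Vim, which encodes vimentin (chromosome 2, plus strand, 13573927 to 13582826), had 80.3, 83.2 and 70.2 CPM in the CD55KO libraries and 57.0, 70.2 and 50.7 CPM in the WT libraries. The genotypes met at the level of CD55KO replicate 3 and WT replicate 2. Its log2 fold change of 0.39 ± 0.11 (SE) did not pass. It was 0.53 without WT replicate 2, where Vim passed, and 0.29 without WT replicate 3. Vim also passed with the replicate number as a block and without a count filter.

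Ahnak (chromosome 19, plus strand, 8989284 to 9076914) was the least expressed of the tested genes for its length. Its values were 6.05, 5.06 and 2.35 CPM in the CD55KO libraries and 2.14, 2.75 and 3.23 CPM in the WT libraries. CD55KO replicates 1 and 2 were above all WT libraries and CD55KO replicate 3 was among them. The log2 fold change of 0.72 ± 0.31 (SE) did not pass, and ranged from 0.44 without CD55KO replicate 1 to 1.03 without CD55KO replicate 3.

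**Figure D4:**
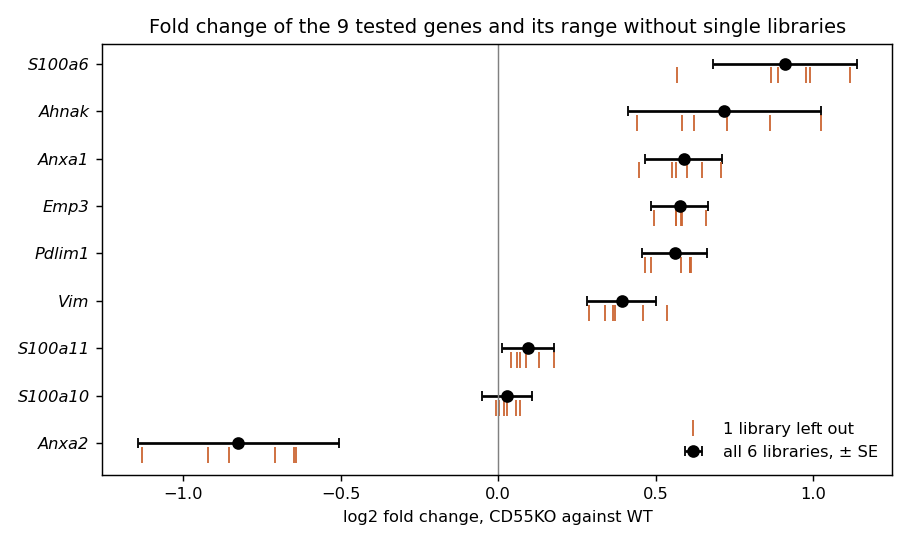
Log2 fold change of CD55KO against WT for the 9 tested genes, with black points and bars for all 6 libraries (± SE) and orange ticks for the 6 fits that each leave out 1 library. Ticks of 8 genes stay on 1 side of 0, and those of S100a10 lie around 0, from -0.0063 to 0.068.

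Among the CD55KO libraries, the same one was highest and the same one lowest for most of these genes. CD55KO replicate 2 was the highest of the CD55KO libraries for 6 of the 9 genes, Anxa1, Anxa2, S100a6, Emp3, Vim and Pdlim1, whereas 30.3% of all tested genes had their highest CD55KO value there. CD55KO replicate 3 was the lowest for 6, Anxa1, S100a6, Ahnak, Emp3, Vim and Pdlim1, against 33.3% of all tested genes. In WT the highest value was spread over replicate 1 (4 genes), replicate 2 (2 genes) and replicate 3 (3 genes). The genes are not independent of each other, and this ordering is a description of 3 libraries.

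Marker genes of other cell types also differed among the libraries. The B-1 cell list summed to 30.9, 33.4 and 23.5 CPM in the CD55KO libraries and 34.1, 24.0 and 22.4 CPM in the WT libraries. The sum was lowest of the CD55KO libraries in replicate 3, like S100a6 and Ahnak, but overlapped between the genotypes. Most of it came from Bhlhe41, at 22.6, 23.1 and 14.7 CPM in CD55KO and 22.1, 15.7 and 13.9 CPM in WT. Within CD55KO, Cd5 and Tbx21 were also lowest in replicate 3, whereas Zbtb32 and Spn were highest there. Monocyte and macrophage markers (12 genes, all with a count) summed to 39.8, 34.8 and 35.1 CPM in the CD55KO libraries. In the WT libraries they summed to 30.3, 28.4 and 24.7 CPM, without overlap between the genotypes. CD55KO replicate 2, the highest library for Anxa1, S100a6, Emp3, Pdlim1 and Vim, had a sum about level with that of CD55KO replicate 3. Most of the monocyte and macrophage sum came from Cd68, at 15.3 to 16.8 and 10.7 to 13.2 CPM, and Spic, at 10.7 to 13.4 and 6.02 to 8.28 CPM. Csf1r, which defines the lineage, overlapped at 0.455 to 1.39 and 0.782 to 2.19 CPM, and 5 of the 12 genes, C1qa, C1qb and C1qc among them, were below 1 CPM in all libraries. The part of such cells in the higher values of Anxa1, S100a6, Emp3, Pdlim1 and Vim was not tested.

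T cell markers were near 0 apart from Lck, which was at 38.7 to 47.7 CPM in all libraries: 8 of the 9 genes were below 1 CPM everywhere, Cd3e at 0 to 0.0486 CPM. The neutrophil markers, which include the S100 genes S100a8 and S100a9, were below 1 CPM in every library (8 of 8 genes). Stromal and endothelial markers summed to 182.5 to 204.0 CPM in CD55KO and 172.6 to 176.7 CPM in WT, nearly all of it Pecam1, which lymphocytes also express, and 5 of the 7 were below 1 CPM. NK cell markers summed to 29.8 to 33.5 CPM in CD55KO and 26.9 to 35.3 CPM in WT, nearly all of it Prf1. Dendritic cell markers gave 5.02 to 5.95 and 4.97 to 7.58 CPM, follicular and transitional B cell markers 1137 to 1229 and 1107 to 1142 CPM, and plasma cell markers 903 to 1090 and 1038 to 1161 CPM, most of it Mzb1, which MZ B cells also express. Of these plasma cell markers, Prdm1 (2.38 to 3.44 against 4.16 to 4.98 CPM), Xbp1 and Jchain were lower in every CD55KO library than in any WT library. Of all tested genes 6.84% showed that separation. Irf4 (55.1 to 64.2 against 49.1 to 62.6 CPM), Mzb1 (760 to 930 against 835 to 988 CPM) and Sdc1 (0.525 to 1.76 against 1.21 to 2.62 CPM) overlapped between the genotypes. Tnfrsf17 did not exceed 0.194 CPM in any library. Only Xbp1, a transcription factor of antibody secretion, passed, as lower in CD55KO (log2 fold change -0.59). Erythroid markers, a measure of red cell RNA, varied most, from 35.8 to 1989 CPM in CD55KO and from 105 to 4351 CPM in WT, with CD55KO replicate 3 the lowest library and WT replicate 1 the highest. From replicate 1 to replicate 3 the erythroid sums fell in both genotypes, while Ahnak fell in CD55KO and rose in WT. The part of red cell RNA in the Ahnak values was not tested.

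None of the 10 genes lies on chromosome 1, where Cd55 is, and 0 of the tested genes within 500 kb of Anxa1, Emp3 or Pdlim1 passed in edgeR. Emp3 had 23 tested neighbours in that window, with a median log2 fold change of 0.04 and 2 with an unadjusted p under 0.05, which 8.60% of all tested genes had. Pdlim1 had 8 with a median of -0.20 and 1 such gene, and Anxa1 had 1 neighbour and none. DESeq2 and limma-voom called 0 of these neighbours too. As the kit leaves strand unmarked, reads of overlapping genes cannot be separated. The annotated genes that overlap Anxa1, Anxa2 or S100a4 had at most 1 count in a library. Since the counting rule is not given, their reads could have been counted for these 3 genes or left out, which was not tested.

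Other genes of the same families and of the processes they serve were looked at for comparison, in 6 lists drawn up by family and function. Of the 98 genes 71 could be tested, and 1 of these passed. The lists were also chosen with earlier results known, and that 1 gene, Csrp1, was known to differ when it was listed. Its p-value below therefore gives no independent support. Their median log2 fold change was 0.02, against 0.0015 for all genes tested.

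The 6 other annexins tested did not pass, with log2 fold changes from -0.07 to 0.38 and a median of 0.06. Anxa6, the most abundant of those named by the rule, averaged 239.7 ± 18.6 CPM in CD55KO mice against 228 ± 5.40 CPM in WT mice (adjusted p = 0.878, edgeR), and its 95% interval for the log2 fold change ran from -0.10 to 0.24. Anxa9 had 2.14 ± 0.68 and 1.67 ± 0.79 CPM (adjusted p = 0.837). The other 4 annexins did not exceed 0.105 CPM in any library. Of 12 other S100 genes only S100a13 and S100a1 could be tested, at 40.2 ± 2.74 and 37.6 ± 2.80 CPM (adjusted p = 0.838) and at 2.49 ± 1.09 and 2.22 ± 0.15 CPM (adjusted p = 0.937). None of the remaining 10 exceeded 0.284 CPM. None of these other annexins and other S100 genes had an unadjusted p under 0.05, and DESeq2 and limma-voom called 0 of them.

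Close relatives of Ahnak, Emp3, Vim and Pdlim1 gave 7 tested genes of 17, of which 0 passed and 0 had an unadjusted p under 0.05. Pdlim5, an actin-binding relative of Pdlim1, averaged 19.9 ± 0.97 CPM in CD55KO mice against 18.0 ± 1.43 CPM in WT mice (adjusted p = 0.777), and Pdlim7 had 48.4 ± 1.603 and 52.4 ± 6.41 CPM (adjusted p = 0.798). Emp1, Emp2 and Pmp22, the relatives of Emp3, were among the 10 genes too low to test, at no more than 0.486 CPM. Of 11 tested partners and membrane repair genes 0 passed, with Chmp4b, a subunit of the membrane-cutting ESCRT-III complex, at 3.80 ± 0.56 and 2.89 ± 0.06 CPM (adjusted p = 0.679), and Pdcd6ip, an ESCRT-associated protein, at 49.9 ± 0.92 and 56.1 ± 8.93 CPM (adjusted p = 0.709). DESeq2 and limma-voom called 0 genes in these lists, and in the second 0 had an unadjusted p under 0.05.

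The 15 effector and memory lymphocyte genes were all tested, 11 with positive and 4 with negative log2 fold changes, a median of 0.08 and 0 past the threshold in edgeR, DESeq2 or limma-voom. The 2 with an unadjusted p under 0.05, against 8.60% of all tested genes, were Tagln2, which encodes the actin-binding transgelin 2, with 113 ± 6.04 and 96.9 ± 3.82 CPM (0.22 ± 0.07 SE as log2 fold change; adjusted p = 0.324), and Cd44, the hyaluronan receptor, with 81.0 ± 4.05 and 70.8 ± 3.36 CPM (0.19 ± 0.07 SE, adjusted p = 0.436). In both, all 3 CD55KO libraries lay above all 3 WT libraries, which 7.24% of all tested genes showed. Among 30 actin cytoskeleton genes 1 rose and 29 did not pass, with a median log2 fold change of 0.02. In this list 3 had an unadjusted p under 0.05: Csrp1, and Vasp (log2 fold change -0.24, adjusted p = 0.365, edgeR) and Actn4 (-0.19, adjusted p = 0.402). For Vasp and Actn4 the CD55KO libraries all lay below the WT libraries, which 6.84% of all tested genes showed. Csrp1, which encodes a LIM protein of actin bundles, rose by a log2 fold change of 0.69 ± 0.13 (SE), to 34.2 ± 2.65 CPM against 21.3 ± 4.11 CPM in WT (adjusted p = 0.0231, edgeR), and was higher in 3 of 3 CD55KO libraries. It lies on chromosome 1, 5.26 Mb from Cd55. It passed in 1 of the 6 fits that left out 1 library, the fit without WT replicate 1 (log2 fold change 0.80), and in the others its log2 fold change was between 0.54, without WT replicate 2, and 0.74.

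**Figure D5:**
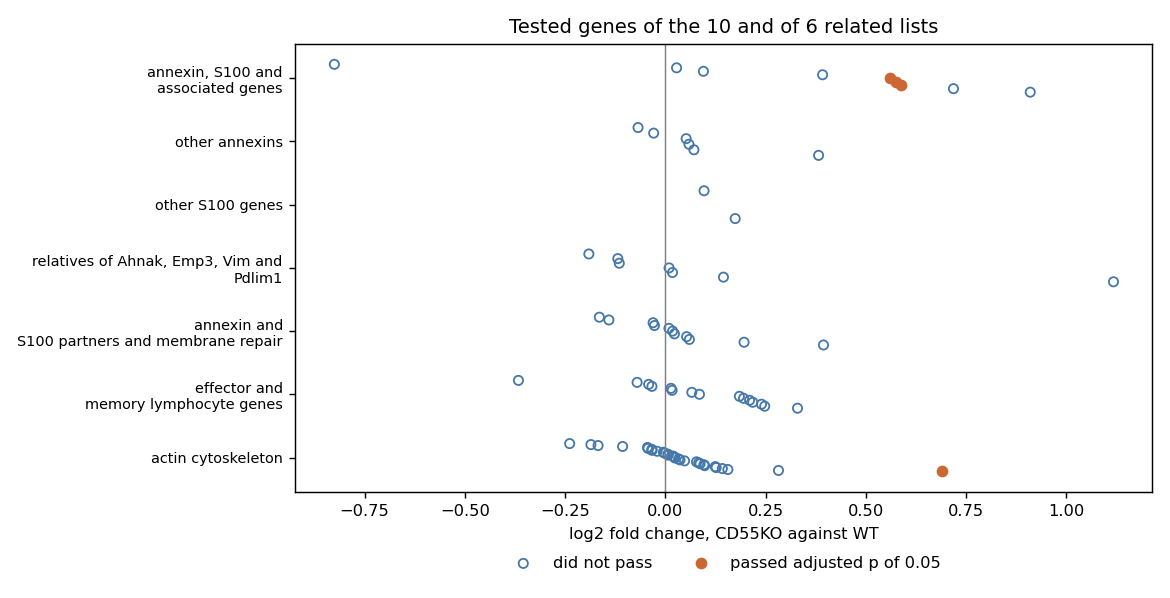
Log2 fold change of CD55KO against WT for each tested gene of the 10 and of the 6 related lists; filled points passed (edgeR) and open points did not. The 3 filled points in the top row are Anxa1, Emp3 and Pdlim1, and that of the actin cytoskeleton row is Csrp1 at 0.69.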

How the data were processed

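The deposited table holds 1 column of estimated counts per library, with no scaling to a common total. Per the labels' protocols, the authors purified RNA on RNeasy micro columns and prepared SMARTer Ultra Low libraries, a chemistry that does not record strand. DRAGEN, limma and edgeR appear in the submitters' processing notes, with neither version nor role. For the counting, its settings, genome build and annotation were not given in the sources used here. In each library 30.9 to 31.9% of the nonzero values were not whole (tolerance 0.005).

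The table had 55774 rows, of which 287 repeated a gene ID with the same values and were removed. Counts were rounded to whole numbers. Genotypes came from the labels. The edgeR function filterByExpr removed low genes (10 counts in enough libraries, 15 in total), and CD55KO was compared with WT in edgeR 4.0.16 (R 4.3.3) with TMM scaling, robust dispersions and the quasi-likelihood test, genotype alone in the model, and Benjamini-Hochberg adjustment over 13794 genes. SE is the log2 fold change divided by the square root of F. Positions and exon lengths are those of GENCODE M21 (GRCm38), which held 99.5% of the IDs. A count of 0 was taken to allow up to 3 counts.

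All 10 genes are named. From each related list the genes past the threshold are named, up to 4, or the 2 with the smallest p where none passed. Marker genes, Vasp and Actn4 lie outside that rule and were picked with their values in view. The members and all lists were chosen with earlier results of these data known. The alternatives were DESeq2 size factors, library totals, leaving the filter out, a filter of 50 counts in 3 libraries, DESeq2 1.42.0, limma-voom (limma 3.58.1), a non-robust fit, the replicate number as a block and leaving out each library.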

Additional observations from a re-analysis of the deposited data

How the results depend on the processing

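Over all genes 55 passed, and the number was 232 without a count filter, 138 by the DESeq2 Wald test and between 37 (without CD55KO replicate 2) and 53 when 1 library was left out. Of the 10 genes 3 passed, and 6 did without a count filter (Anxa1, Anxa2, S100a6, Emp3, Vim and Pdlim1), while leaving out 1 library gave between 0, without CD55KO replicate 2, and 4, without CD55KO replicate 3, with 1 (Emp3) without WT replicate 3. The DESeq2 Wald test called 4 of the 10, S100a6 in addition. Emp3 passed in every alternative but that without CD55KO replicate 2. Anxa1 did not pass with DESeq2 size factors, library totals, limma-voom or the non-robust fit. Of the related genes 1 passed, Csrp1, with 0 in the non-robust fit and 0 to 1 without 1 library. The log2 fold change of S100a10 changed sign without CD55KO replicate 3 and lay between -0.0063 and 0.068 without 1 library, as did that of S100a1 (-0.17 to 0.47). In the remaining alternatives the other tested genes of the 10 and the 11 related genes named by the rule kept their direction. Marker genes were not recomputed under the alternatives, and S100a4 could be fitted only without a count filter. The cause of these shifts was not tested.

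The labels number the replicates alike in both genotypes. Deviations from the genotype mean correlated at 0.07, -0.12 and 0.17 between libraries of the same number, for replicates 1 to 3. Between libraries of different numbers the correlations ran from -0.23 to 0.17. With 3 libraries per genotype, these values cannot tell whether equal numbers mark a pair. With the replicate block 64 genes passed, 4 of the 10 (Anxa1, Emp3, Vim and Pdlim1) and 1 related gene. Depth limits S100a4 (at most 10 counts) and the 27 related genes too low to test.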
